A study of Mus musculus with 24 samples.

Results

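The genes described are the Wnt ligands, their receptors and their modulators, measured in inguinal white adipose tissue, a fat depot under the skin of the groin. Members were chosen by symbol (Wnt, Fzd, Sfrp, Dkk and Rspo genes, Lgr4 to Lgr6, Lrp5, Lrp6, Axin2, Wif1, Znrf3 and Rnf43), which gave 45 of the 16118 genes in the deposited table. They are 16 Wnt ligands, 10 frizzled receptors, 2 co-receptors, 4 R-spondins, 3 R-spondin receptors, 2 receptor ubiquitin ligases, 7 secreted inhibitors and Axin2, and all 45 passed the filter on low values.

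Polyadenylated RNA of 24 mice was sequenced, 1 library per mouse, in 6 groups of 4. Males and females were taken at postnatal day 21 (p21), or at day 28 (p28) either after removal from the mother at day 21 (standard weaning, SW) or still with her (delayed weaning, DW). The labels name no allele or further agent and give no strain. They do not say whether littermates were used, so p-values measure the spread between these animals. Values are the authors' normalised read numbers, and group values are mean ± SD with n = 4 animals. A change is a difference of log2(normalised read number + 1), tested by limma in 1 fit of all 24 animals, and a gene is called at a Benjamini-Hochberg adjusted p under 0.05 over the 16005 genes tested.

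Wnt proteins are secreted lipid-modified ligands that bind a frizzled receptor together with LRP5 or LRP6, which stabilises beta-catenin and lets it act with TCF/LEF factors on target genes. R-spondins bind LGR receptors and withdraw the ubiquitin ligases ZNRF3 and RNF43, which otherwise remove frizzled receptors from the cell surface. SFRP and WIF1 proteins bind the ligands, some DKK proteins act at the co-receptor, and Axin2 is a target gene whose product dampens the pathway. In fat, canonical Wnt signalling, for which Wnt10b is the best known ligand, holds preadipocytes back from becoming adipocytes, and in the mammary gland, whose ducts grow inside this depot, Wnt4 and R-spondins take part in duct branching.

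The libraries held 57600711 to 302145813 recovered reads in the listed genes. The summed level of 6 adipocyte markers was 12800 to 22400 in every animal, so the labelled tissue showed in all libraries. 4 Y chromosome genes had at least 16393 reads in each male and 0 in each female. The p21 male 53 stood apart, with 14054 detected genes against 15859 to 15977 in the other p21 males, and DW females 82 and 83 lay at -45.3 and -61.3 on the second principal component, against 4.6 and -1.5 for DW females 76 and 77. Where leaving these animals out ended a call or moved a called value by over 1.5 times, this is given beside the result. Other tissues in the depot varied with the groups. The sum of 8 mammary luminal markers was 314 to 414 in SW females, 145 to 261 in DW females, 68.2 to 204 in p21 females and 9.77 to 59.5 across the males. Among these markers Csn3, a milk casein, had 0 reads in 3 of 4 p21 males and in 1 of 4 SW and DW males, and Elf5, a luminal transcription factor, had 0 reads in 3, 2 and 1 of them. Krt8 had 0 reads in 1 male of each group. The sum of 7 skeletal muscle markers varied more, from 3.13 to 512 in p21 males, up to 4680 in SW males and 6350 in DW males (lowest 417 and 302), and, in females, from 4 to 1210 at p21, from 297 to 2710 after SW and from 3.29 to 1740 after DW.

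Lgr6, an R-spondin receptor, fell from day 21 to 28 in both sexes under both weaning schemes. Wnt4, Wnt7b and Rspo4 rose with age in SW females and were higher there than in SW males. In both male groups the receptors Fzd6 and Fzd8 and the co-receptor Lrp6 rose from day 21 to 28 and the receptor Fzd7 fell. Fzd6 also rose in SW females. No frizzled receptor or co-receptor was called for the difference between the sexes in the change under standard weaning. In all, 20 members were called in at least 1 of 11 contrasts and 25 in none. The share of all genes called in at least 1 contrast was not computed. These 2 counts, and the counts of classes over all contrasts given below, thus do not show whether members changed more often than other genes. From day 21 to 28, 5 members were called in SW males against 11.9% of all genes, 3 of them higher (6.9% of all genes) and 2 lower (4.97%). In SW females 9 were called against 11.6% of all genes, 8 higher (7.39%) and 1 lower (4.23%). In DW males 9 were called against 15%, 7 higher (8.86%) and 2 lower (6.1%), and in DW females 5 against 12.1%, 4 higher (5.95%) and 1 lower (6.16%). As a share of the 45 members, 11.1% were called in SW males and in DW females, near the share of all genes. In SW females and in DW males 20% were called, against 11.6% and 15% of all genes. These counts depended on the fit. Over the alternative fits, 2 to 11 members were called in SW females and 2 to 10 in DW males, without the share of all genes beside them. The median change of the 45 members was 0.00 in SW males, 0.11 in SW females, 0.10 in DW males and 0.09 in DW females, against 0.02, 0.01, 0.02 and 0.00 over all genes in the same order of groups. Contrasts within a sex share the p21 animals. At the same age, 0 members were called between DW and SW males, against 0.256% of all genes, with 2 members at an unadjusted p under 0.05. edgeR and DESeq2 on the recovered reads also called 0 there, at day 21 between the sexes and for the sex difference in the weaning effect. Between DW and SW females 2 were called, both lower in DW, against 1.27% of all genes in either direction and 0.812% lower. Between the sexes 0 were called at day 21 (0.356% of all genes, and 4 members at an unadjusted p under 0.05), 9 after standard weaning, all higher in females (3.54% of all genes, 3.36% higher), and 2 after delayed weaning, both higher in females (2.46%, and 1.89% higher).

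**Figure D1:**
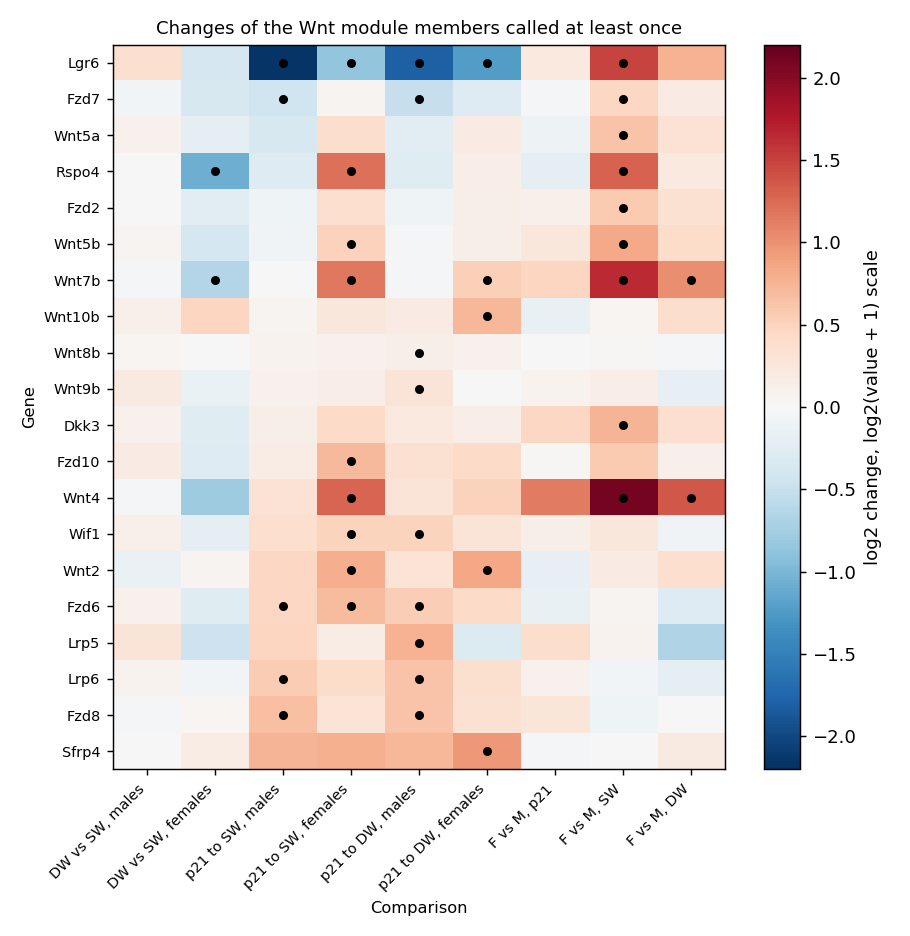
Log2 change, as colour, of each of the 20 members called at least once (vertical) in the 9 comparisons of 2 groups (horizontal), with a black dot for each call at an adjusted p under 0.05. On this log2(value + 1) scale Lgr6 changes by -2.15 with age in SW males, and SW females exceed SW males by 2.11 for Wnt4 and 1.64 for Wnt7b. edgeR with TMM gives 3.18 and 5.56 for these 2 differences, so their order depends on the scale.

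Levels of different genes were compared per kilobase of exon, as means over the 24 animals. Among the frizzled receptors Fzd4 stood at 37.6 per kilobase, 73.4% of the summed level of its class, followed by Fzd7 at 4.04, Fzd6 at 3.34 and Fzd1 at 2.84. The range of Fzd4 over animals, 29.3 to 50.9, did not meet that of any other frizzled gene. Both co-receptors were well expressed, Lrp6 at 8.71 and Lrp5 at 6.72. The ligands were low, led by Wnt5a at 2.73 (32.4% of the ligand sum), a ligand known mainly for beta-catenin-independent signalling, Wnt2 at 1.89 and Wnt10b at 1.12. Of the secreted inhibitors, Sfrp2 stood at 11.1 (54.6%) and Sfrp4 at 3.41. Lgr4 made up 76.8% of the LGR sum at 3.47 per kilobase, Lgr6 19.7% at 0.89 and Lgr5 3.48% at 0.157. R-spondins were lowest, Rspo1 at 0.348 and Rspo4 at 0.218. Shares of a class differed between groups, Rspo4 making up 57.6% ± 12.7 of the R-spondin sum in SW females, where Rspo1 made up 30.4% ± 12.5, and Lgr6 making up 31.4% ± 9.71 of the LGR sum in p21 females and 6.17% ± 3.58 in SW males. The ligases Znrf3 and Rnf43 stood at 1.44 and 0.344 and Axin2 at 2.86. The summed ligand level per kilobase was 11.3 ± 0.889 in SW females and 10.3 ± 0.732 in DW females, against group means of 7.17 to 7.34 in the other 4 groups.

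**Figure D2:**
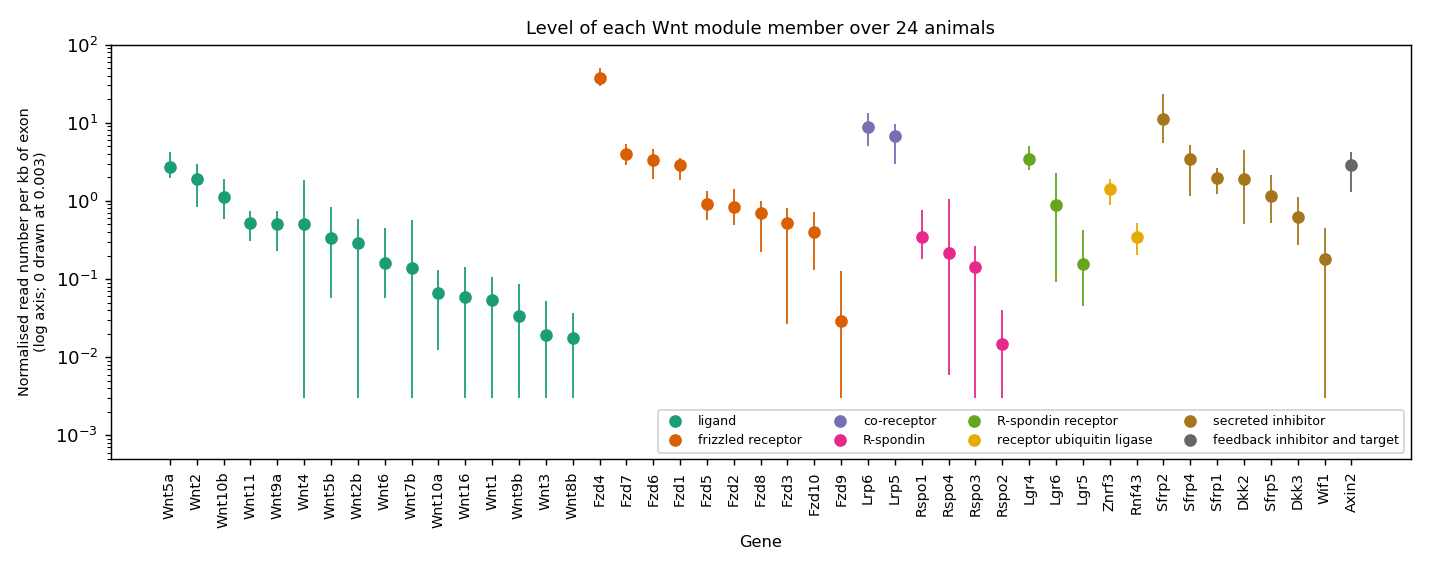
Mean normalised read number per kilobase of exon for each member over the 24 animals, on a log scale, coloured by class (points), with lines from the lowest to the highest animal. Fzd4 stands highest at 37.6, followed by Sfrp2 at 11.1 and Lrp6 at 8.71.

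Lgr6 (ENSMUSG00000042793), whose product binds R-spondins and which is known to mark progenitor cells in skin and mammary gland, was called lower with age in all 4 groups of p28 animals. In p21 males 37, 38, 53 and 54 its normalised read numbers were 8.51, 10.0, 11.2 and 10.6. In SW males 78, 84, 85 and 124 they were 3.07, 2.31, 0.751 and 0.634, and in DW males 79, 80, 86 and 87 they were 1.69, 2.37, 1.91 and 2.94. Every p28 male lay below every p21 male, and the SW and DW males overlapped. In p21 females 30, 36, 55 and 56 the values were 8.0, 15.6, 13.4 and 11.4. In SW females 73, 74, 75 and 81 they were 6.78, 5.37, 6.02 and 5.98, and in DW females 76, 77, 82 and 83 they were 3.77, 5.11, 4.57 and 4.39. Every p28 female thus lay below every p21 female, and every p28 female lay above every p28 male. In a bulk sample, fewer cells of a type and less RNA per cell cannot be told apart. Of 5 Schwann cell markers, 3 also fell in SW females (median change of the 5, -0.78), 2 in DW females (-0.83) and 1 in each male group (-0.35 in SW and 0.03 in DW males). Their summed level was 435 to 720 in p21 females, 312 to 418 in SW females and 213 to 552 in DW females, and in males 329 to 563, 296 to 471 and 351 to 559. Their part in the result was not tested.

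From day 21 to 28 Lgr6 changed by -2.15 on the log2 scale in SW males (SE 0.231, limma adjusted p = 1.15e-05) and by -1.79 in DW males (adjusted p = 6.16e-05). In females it changed by -0.87 after standard weaning (adjusted p = 0.0151) and by -1.23 after delayed weaning (adjusted p = 0.0015). The fall in DW females was -1.25 (adjusted p = 0.0118) without animals 82 and 83. The call in SW females was lost on leaving out p21 female 36 (-0.74, adjusted p = 0.0597), with edgeR using TMM (-1.03, adjusted p = 0.0562) or DESeq2 size factors (adjusted p = 0.0667), and in limma with a pseudocount of 0.1 (-0.96, adjusted p = 0.0679). After standard weaning Lgr6 was higher in females than in males by 1.5 (adjusted p = 9.52e-05). At day 21 the sexes differed by 0.21 (adjusted p = 0.838), and after delayed weaning by 0.77, which did not pass the test (adjusted p = 0.0813). It passed without DW female 76 (adjusted p = 0.0393), with DESeq2 (1.02, adjusted p = 0.0436) and with only the groups compared in the fit (adjusted p = 0.0331), and was 0.01 (adjusted p = 0.996) with the luminal and skeletal muscle marker scores of each animal (tissue scores) in the fit. With these scores the sex difference after standard weaning was 0.63 (limma adjusted p = 0.883). The luminal sums of the sexes overlapped in neither weaning scheme, so sex and the luminal score cannot be told apart there. The difference between the sexes in the fall under standard weaning was 1.28 (SE 0.326, adjusted p = 0.0598), and it passed the test on leaving out SW male 78 (1.52, adjusted p = 0.0076), SW male 84 (1.42, adjusted p = 0.0453) or p21 female 36 (1.41, adjusted p = 0.0388). Between DW and SW animals Lgr6 differed by 0.36 in males (adjusted p = 0.865) and -0.37 in females (adjusted p = 0.369). With the tissue scores in the fit, the change with age was -2.05 in SW males (adjusted p = 0.00112), -1.64 in DW males (adjusted p = 0.00449), -1.19 in SW females (adjusted p = 0.0714) and -1.41 in DW females (adjusted p = 0.00143). The luminal sums of p21 and SW females did not overlap, so age and this score cannot be told apart in SW females.

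**Figure D3:**
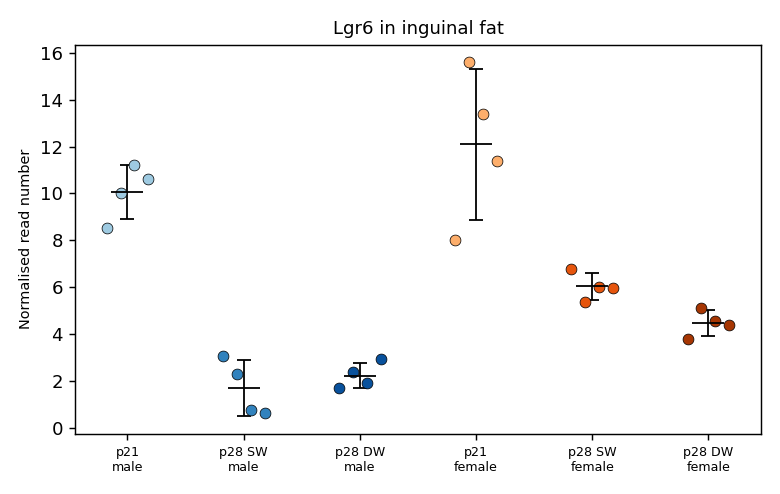
Normalised read number of Lgr6 in each of the 24 animals (points), with the mean and SD of each group of 4 (bars). All 16 p28 animals lie below the lowest p21 animal, at 8.0, and the p28 males lie lowest.

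The other LGR genes were not called in any contrast. Lgr4, the most abundant, had group means of 17.9 to 24.3, and its change with age ranged from -0.27 to 0.13 over the 4 contrasts. Lgr5, an intestinal and follicle stem cell marker, spread widely among p21 males, from 0.581 to 4.41, and its mean was 0.923 ± 0.518 in SW males and 1.85 ± 0.393 in SW females, a difference of 0.59 (adjusted p = 0.506).

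Among the R-spondins, which bind LGR receptors, only Rspo4 (ENSMUSG00000032852) was called. In SW females 73, 74, 75 and 81 its normalised read numbers were 2.37, 2.48, 1.16 and 1.4. They were 0.016, 0.226, 0.385 and 0.229 in p21 females, and 0.421, 0.499, 0.19 and 0.236 in DW females 76, 77, 82 and 83. The SW females stood above all other animals, with 144 to 371 reads against 2 to 67 elsewhere. In males the values were 0.291 to 0.555 at day 21, 0.084 to 0.22 after standard weaning and 0.0141 to 0.495 after delayed weaning. Rspo4 rose from day 21 to 28 in SW females by 1.21 (adjusted p = 4.68e-06) and the change in DW females was 0.14 (adjusted p = 0.553). DW females differed from SW females by -1.07 (SE 0.14, adjusted p = 0.000345), or -0.94 without DW females 82 and 83 (adjusted p = 0.0515). edgeR with TMM on the recovered reads gave -2.42 for the same contrast with an adjusted p of 0.142. SW females exceeded SW males by 1.29 (adjusted p = 7.86e-07). The change from day 21 under standard weaning differed between the sexes by 1.49 (limma adjusted p = 0.000188, edgeR adjusted p = 0.111), with every SW male below every p21 male. In that contrast 2 members, both higher, and 1.03% of all genes (0.962% higher) were called. The difference between the sexes in the weaning effect was -1.08 (adjusted p = 0.072), where 0 members and 0.0187% of all genes were called, with 5 members at an unadjusted p under 0.05. Rspo1, Rspo2 and Rspo3 had group means of 0.554 to 0.773, 0.0295 to 0.107 and 0.32 to 0.528.

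2 ligands, Wnt4 and Wnt7b, were also highest in SW females. Wnt4 (ENSMUSG00000036856), a ligand acting downstream of progesterone in the mammary gland, stood at 4.53, 6.94, 7.66 and 4.85 in SW females 73, 74, 75 and 81, and at 4.4, 4.14, 1.83 and 2.2 in DW females 76, 77, 82 and 83. It stood at 1.76, 2.63, 0.906 and 2.27 in p21 females. In males it lay between 0 and 0.664 at day 21, 0.252 and 1.02 after standard weaning and 0.0675 and 1.3 after delayed weaning. The SW females did not overlap any other group. Wnt4 rose in SW females by 1.29 (SE 0.272, adjusted p = 0.00272), and in DW females the change was 0.50 (adjusted p = 0.239). DW differed from SW females by -0.79 (adjusted p = 0.162). In DW females Wnt4 split by animal, so both values depend on DW females 82 and 83, which stood apart. Animals 76 and 77 lay above every p21 female, and animals 82 and 83 lay within the p21 range. SW females exceeded SW males by 2.11 (adjusted p = 8.6e-06) and DW females exceeded DW males by 1.37 (adjusted p = 0.0043), or by 1.77 (adjusted p = 0.00149) without DW females 82 and 83. edgeR with TMM gave adjusted p-values of 0.169 for the rise in SW females and 0.0952 for the sex difference after delayed weaning.

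Wnt7b (ENSMUSG00000022382), an epithelial ligand, was at or near 0 in males, with 0 reads in 7 of 12 and at most 26 reads in any. In females it stood at 0.368, 0.658, 0.135 and 0.752 at day 21, at 2.07, 1.88, 2.37 and 2.81 after standard weaning and at 1.54, 1.15, 0.759 and 1.01 after delayed weaning. All SW females lay above all DW females, and all DW females above all p21 females. It rose by 1.16 in SW females (adjusted p = 1.49e-06) and by 0.53 in DW females (adjusted p = 0.00772, or 0.00562 without animals 82 and 83). The difference of DW from SW females was -0.64 (SE 0.124, adjusted p = 0.0104), and the call was lost without DW female 82 (-0.56, adjusted p = 0.0687), DW female 83 (-0.62, adjusted p = 0.0529) or both (-0.48, adjusted p = 0.444). That call was also lost with either edgeR fit, DESeq2, a pseudocount of 0.1 and only the groups compared (adjusted p up to 0.718). Females exceeded males by 1.64 after standard weaning (adjusted p = 4.21e-09) and by 1.02 after delayed weaning (adjusted p = 1.32e-05). The change from day 21 under standard weaning, with males near 0 at both ages, differed between the sexes by 1.17 (adjusted p = 0.000639). With edgeR and TMM this last difference and both rises with age were not called (adjusted p = 0.872, 0.189 and 0.462).

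**Figure D4:**
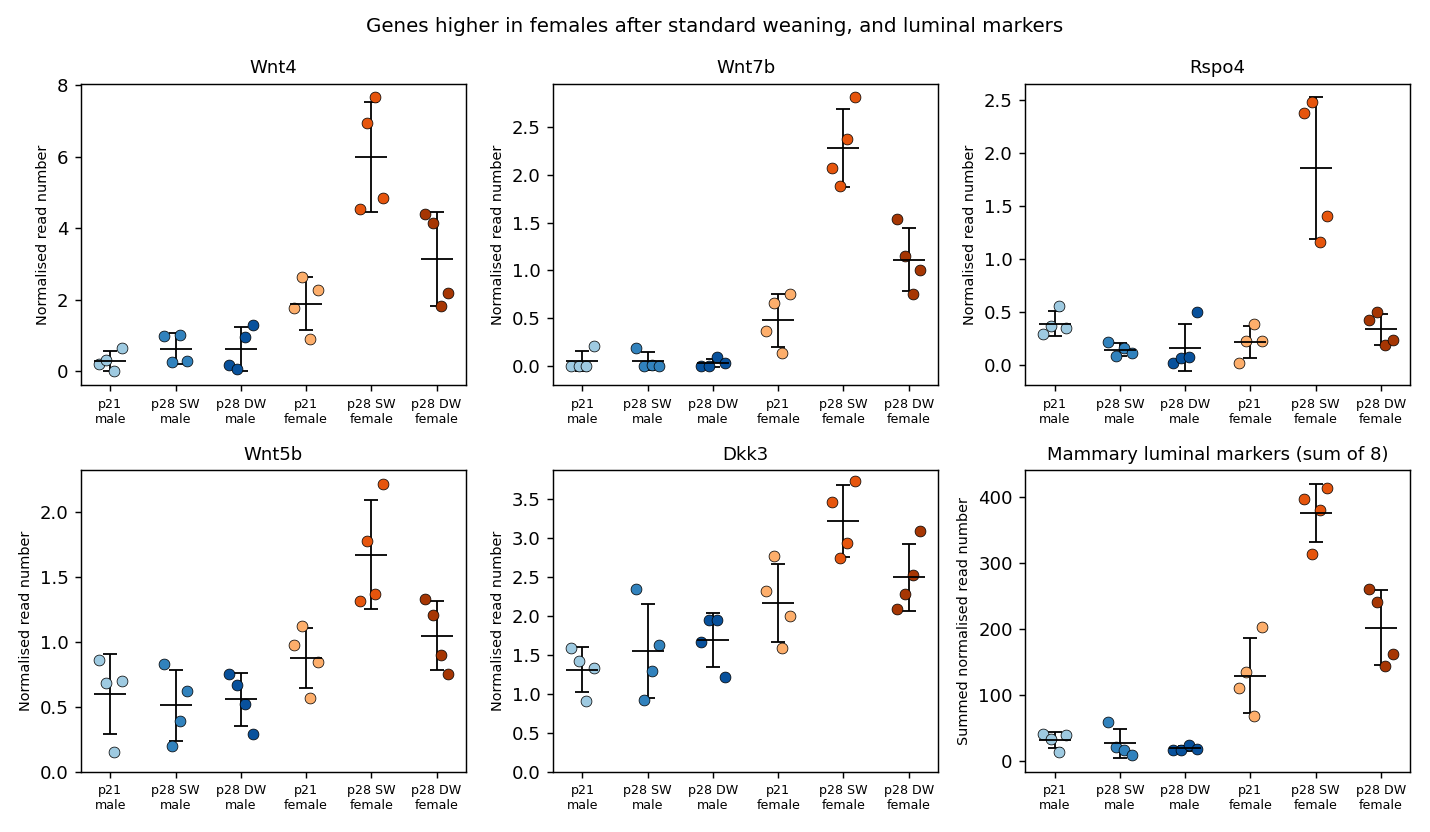
Normalised read numbers of Wnt4, Wnt7b, Rspo4, Wnt5b and Dkk3 and the sum of the 8 mammary luminal markers in each animal (points), with the mean and SD of each group of 4 (bars). For Rspo4 the 4 SW females, at 1.16 to 2.48, lie above all other animals.

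The mammary luminal markers also rose in SW females, with calls that differed from those of these 3 genes in some contrasts. Of the 8 markers, 6 rose from day 21 to 28 in SW females, 1 rose in DW females, 1 was called lower in DW females than in SW females, and 8, 7 and 6 were higher in females than in males after standard weaning, after delayed weaning and at day 21. None of the 3 genes was called between the sexes at day 21, and Rspo4 was not called between them after delayed weaning. Krt8, a luminal keratin, had a mean of 62.1 ± 9.33 in SW females, 24.7 ± 15.2 in DW females and 10.1 ± 5.81 in p21 females. The 5 basal markers summed to 77.1 to 109 in SW females and 44.1 to 49.7 in DW females. With the luminal and muscle scores in the fit, none of the 9 sex differences after standard weaning was called, for Wnt4 at 0.49, for Wnt7b at 0.71 (both adjusted p = 0.883) and for Rspo4 at 1.28 (adjusted p = 0.788). The luminal sums of SW males and SW females did not overlap, so sex and this score cannot be told apart there. In the same fit the rise in SW females was 1.20 for Rspo4 (adjusted p = 0.00497), 0.69 for Wnt7b (adjusted p = 0.0052) and 0.35 for Wnt4 (adjusted p = 0.697), and the difference of DW from SW females was -1.06 for Rspo4 (adjusted p = 0.0242) and -0.36 for Wnt7b (adjusted p = 0.388). The luminal sums of SW females also overlapped neither those of p21 females nor those of DW females. Group and this score thus cannot be told apart in these contrasts either, for these or other genes.

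The sequences upstream of Lgr6, Rspo4, Wnt4 and Wnt5b are shown as 4 of the members that changed in females or differed between the sexes and had an entry in the RefSeq promoter table (GRCm38.p6), chosen after their values were seen. Wnt2, Wnt10b, Fzd10 and Wif1 also changed in females and had an entry, as did Fzd7, which differed between the sexes after standard weaning. The table held 33 entries for 29 of the 45 members. Each run is the 250 bases before the annotated start, read 5′ to 3′ on the gene's strand, at chr1:135105277-135105526 (minus strand) for Lgr6, chr2:151842677-151842926 (plus) for Rspo4, chr4:137277385-137277634 (plus) for Wnt4 and chr6:119449387-119449636 (minus) for 1 of the 3 Wnt5b entries. Capitals mark CTTTGA or CTTTGT on either strand, the core that TCF/LEF factors recognise.
Lgr6: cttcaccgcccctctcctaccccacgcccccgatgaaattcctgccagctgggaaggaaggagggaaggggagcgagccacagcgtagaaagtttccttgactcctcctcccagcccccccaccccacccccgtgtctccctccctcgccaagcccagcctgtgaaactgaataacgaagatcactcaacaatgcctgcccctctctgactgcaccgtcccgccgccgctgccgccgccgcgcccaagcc
Rspo4: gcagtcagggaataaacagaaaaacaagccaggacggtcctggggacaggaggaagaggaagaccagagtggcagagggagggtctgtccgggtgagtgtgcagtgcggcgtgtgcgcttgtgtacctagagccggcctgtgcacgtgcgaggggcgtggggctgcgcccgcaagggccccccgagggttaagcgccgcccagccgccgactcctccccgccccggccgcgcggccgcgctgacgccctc
Wnt4: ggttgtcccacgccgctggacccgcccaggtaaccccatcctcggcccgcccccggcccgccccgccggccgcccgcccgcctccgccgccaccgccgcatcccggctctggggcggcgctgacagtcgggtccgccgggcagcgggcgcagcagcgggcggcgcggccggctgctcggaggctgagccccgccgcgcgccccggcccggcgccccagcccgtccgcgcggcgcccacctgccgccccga
Wnt5b: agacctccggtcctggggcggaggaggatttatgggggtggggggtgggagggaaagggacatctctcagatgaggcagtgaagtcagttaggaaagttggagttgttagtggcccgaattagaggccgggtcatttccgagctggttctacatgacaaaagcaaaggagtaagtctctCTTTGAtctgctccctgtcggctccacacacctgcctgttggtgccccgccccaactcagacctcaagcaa
GC content was 65.2%, 69.6%, 85.2% and 55.6% for these entries, against a median of 52.4% over all 32851 entries of the table. In the entries shown the core was found in 1 place, 71 bases before the start of the Wnt5b entry, and it was in no other Wnt5b entry. The Fzd7 entry held the core 129 bases before its start, and those of Wnt2, Wnt10b, Fzd10 and Wif1 did not hold it. Of the members' 33 entries 6 held it (18.2%), against 27.6% of all entries.

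Other ligands changed less. Wnt5b, a ligand of the beta-catenin-independent kind, stood at 1.32, 1.78, 1.37 and 2.22 in SW females, above its range of 0.196 to 0.832 in SW males, a difference of 0.83 (adjusted p = 0.00111). Its rise with age in SW females was 0.51 (adjusted p = 0.0357), lost on leaving out any of p21 females 30, 55 and 56 or SW females 74 and 81 (adjusted p = 0.0554 to 0.137). That call was also lost with either edgeR fit, DESeq2, a pseudocount of 0.1 and tissue scores (adjusted p up to 0.894). Wnt5a had a mean of 27.1 ± 4.6 after standard weaning in females and of 17 ± 2 in males, without overlap, a difference of 0.63 (adjusted p = 0.027) that was lost on leaving out any of 6 animals, SW males 78, 84 and 85 and SW females 73, 74 and 81 (adjusted p = 0.0518 to 0.145). Wnt2, known from lung development as a beta-catenin ligand, rose in SW females by 0.80 (adjusted p = 0.0137), from 2.16 to 3.17 at day 21 to 4.6 to 6.02, and in DW females by 0.85 (adjusted p = 0.0104), to 4.38 to 6.69, or by 0.67 without DW females 82 and 83 (adjusted p = 0.114). With the tissue scores in the fit the change of Wnt2 was 0.81 in SW females (adjusted p = 0.253) and 0.86 in DW females (adjusted p = 0.0253). In males Wnt2 changed by 0.45 and 0.30 under SW and DW (adjusted p = 0.172 and 0.359).

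Wnt10b, the ligand that restrains adipocyte formation, was 2.08 to 4.14 in p21 females and 4.15 to 6.41 in DW females. The rise of 0.73 (adjusted p = 0.0393) was lost on leaving out any of p21 females 36, 55 and 56 or DW females 77, 82 and 83 (adjusted p = 0.074 to 0.113), or both 82 and 83 (0.69, adjusted p = 0.151). Wnt9b and Wnt8b were called in DW males at very low levels, from 0 to 0.0977 up to 0.197 to 0.387 for Wnt9b (0.28, adjusted p = 0.00793) and from 0 to 0.0332 up to 0.0634 to 0.128 for Wnt8b (0.12, adjusted p = 0.0473). Wnt8b had 0 to 4 reads per p21 male and 9 to 17 per DW male, and leaving out any of 7 animals, all but DW male 79, ended its call (adjusted p = 0.056 to 0.127). Of the 16 ligands, 8 were called in no contrast, among them Wnt11 and Wnt9a with group means of 1.81 to 2.47 and 1.31 to 1.96. Wnt6 and Wnt10a, Wnt9b and Wnt3, and Wnt10b and Wnt1 are neighbours in the RefSeq annotation, and of these 6 genes Wnt9b and Wnt10b were called.

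Of the 10 frizzled receptors, Fzd6 was called with age in 3 groups. Fzd6, a receptor used in planar cell polarity, stood at 12, 13.4, 12.8 and 13.1 in p21 males and at 20.5, 20.1, 19.3 and 13.2 in SW males 78, 84, 85 and 124, so that 3 of 4 SW males lay well above day 21. In DW males it was 18.5, 19, 17.2 and 22.3. The rise was 0.46 in SW males (adjusted p = 0.0442) and 0.55 in DW males (adjusted p = 0.0165), and 0.69 in SW females (adjusted p = 0.00295), where it went from 9.11 to 15.6 at day 21 to 15.1 to 20.8. The SW male call was lost on leaving out any p21 male or SW male 78, 84 or 85 (adjusted p = 0.0639 to 0.118), and the DW male call without DW male 87 (0.48, adjusted p = 0.0682). In DW females the change was 0.42 (adjusted p = 0.063). With the tissue scores in the fit none of these rises was called, at 0.38 in SW males (adjusted p = 0.329), 0.49 in DW males (adjusted p = 0.147) and 0.51 in SW females (adjusted p = 0.311).

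Fzd7, a receptor of beta-catenin signalling, went the other way. It stood at 22.6, 22.3, 21.1 and 18.4 in p21 males, 17.5, 15.8, 14.6 and 13.4 in SW males and 13.2, 13.7, 14.2 and 17.5 in DW males, with every p28 male below every p21 male. The fall was -0.44 in SW males (adjusted p = 0.0282) and -0.50 in DW males (adjusted p = 0.0117). The first call was lost on leaving out p21 male 37, 38 or 53 or SW male 85 or 124 (adjusted p = 0.0518 to 0.0816). Females changed by 0.06 after standard and -0.28 after delayed weaning (adjusted p = 0.83 and 0.152), and the sexes' changes under standard weaning did not differ by test (0.50, SE 0.18, adjusted p = 0.314). SW females were above SW males by 0.46 (adjusted p = 0.0458), a call lost on leaving out any of SW males 84, 85 and 124 or SW females 73, 74 and 81 (adjusted p = 0.0846 to 0.162).

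Fzd8 was 3.49, 3.29, 1.31 and 3.34 in p21 males 37, 38, 53 and 54, 4.66 to 5.11 in SW males and 4.21 to 5.59 in DW males, without overlap between the ages. It rose by 0.66 in SW males (adjusted p = 0.0151), or by 0.43 (adjusted p = 0.0392) without p21 male 53, and by 0.62 in DW males (adjusted p = 0.0184), the latter lost without p21 male 53 (0.39, adjusted p = 0.0615) or DW male 87 (0.55, adjusted p = 0.0702). Per kilobase, Fzd8 was 0.585 ± 0.0444 in p21 females, 0.772 ± 0.193 in SW females and 0.784 ± 0.0636 in DW females. Neither change of Fzd8 with age in females was called. Fzd10 rose in SW females by 0.72 (adjusted p = 0.0165), from 0.424 to 1.29 at day 21 to 1.63 to 2.34, and lost the call without p21 female 30 or 36 or SW female 81 (adjusted p = 0.0501 to 0.0747). Fzd2 ranged from 3.38 to 5.16 in SW females, and from 2.03 to 2.98 in the SW males (0.57, adjusted p = 0.0297), a call lost without SW male 84 or 85 or SW female 74 or 81 (adjusted p = 0.0986 to 0.135). Fzd4, the predominant frizzled gene and the receptor for norrin in vessels, was not called in any contrast. Its group means ran from 214 ± 17.8 in SW females to 297 ± 37.4 in DW males.

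Of the co-receptors, Lrp6 rose in both male groups and Lrp5 in DW males. Lrp6 stood at 116, 98, 69.7 and 82.8 in p21 males, 115, 147, 124 and 147 in SW males and 123, 131, 134 and 181 in DW males, so that only p21 male 37 reached the p28 range. Lrp6 rose by 0.55 in SW males (adjusted p = 0.0149) and by 0.64 in DW males (adjusted p = 0.0055). The first call was lost without p21 male 53 (0.43, adjusted p = 0.0581). Its change in SW and DW females was 0.41 and 0.35 (adjusted p = 0.0678 and 0.106). Lrp5 was 39.6, 56.3, 39.2 and 61.8 in p21 males and 81, 94, 72.6 and 83.2 in DW males, without overlap (0.76, adjusted p = 0.0393), a call lost without p21 male 37 or 53 or any DW male (adjusted p = 0.0551 to 0.121). In SW males Lrp5 was 64, 61.8, 70.1 and 75.1, a change of 0.48 that did not pass the test (adjusted p = 0.212). In DW females Lrp5 split by animal, at 76.5 and 79.6 in animals 76 and 77 and at 40 and 28.6 in animals 82 and 83. The summed co-receptor level per kilobase was 11.8 ± 1.77 in p21 males, 16.7 ± 1.46 in SW males and 18.9 ± 2.13 in DW males. All 7 skeletal muscle markers were also called higher with age in SW males (median change 5.62) and in DW males (5.31), as were 1 and 3 of 4 endothelial markers. With the luminal and muscle scores in the fit the change of Lrp6 was 0.51 in SW and 0.57 in DW males (adjusted p = 0.16 and 0.0843), that of Fzd8 0.57 and 0.55 (adjusted p = 0.198 and 0.171), and that of Fzd7 -0.60 and -0.63 (adjusted p = 0.0539 and 0.0314).

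**Figure D5:**
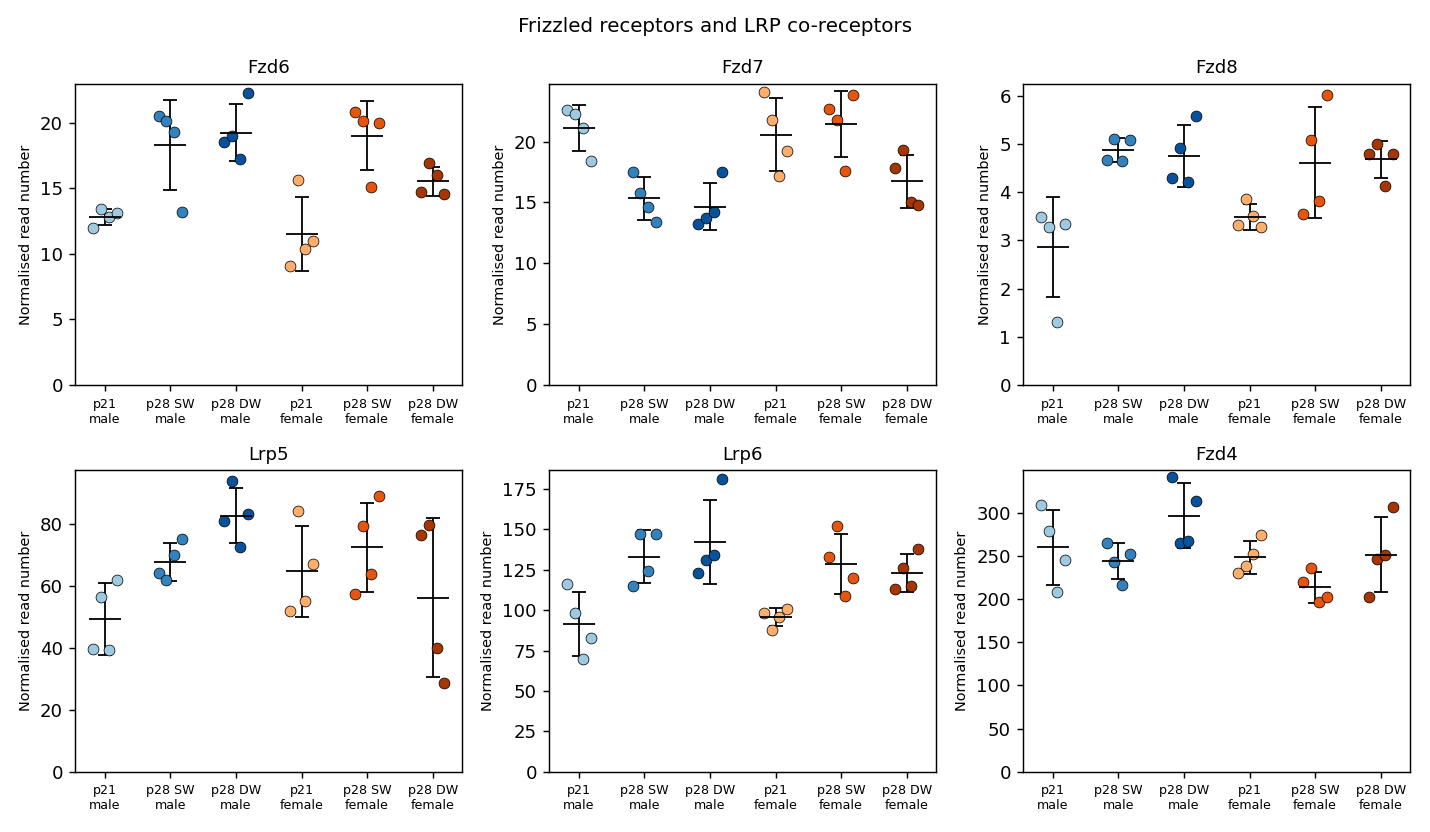
Normalised read numbers of Fzd6, Fzd7, Fzd8, Lrp5, Lrp6 and Fzd4 in each animal (points), with the mean and SD of each group of 4 (bars). In males the p28 points lie below the p21 points for Fzd7 and above them for Fzd8, and Lrp5 splits among DW females.

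Of the 7 secreted inhibitors, 3 were called. Sfrp4, a decoy that binds Wnt ligands, was 7.68 to 10.1 in p21 females and 14.5 to 22 in DW females, a rise of 0.96 (adjusted p = 0.0279), or 1.09 (adjusted p = 0.0569) without DW females 82 and 83. Leaving out p21 female 36, 55 or 56 or DW female 77 or 82 also ended the call (adjusted p = 0.0516 to 0.0698). Its other changes with age were 0.74 in SW males, 0.74 in DW males and 0.79 in SW females (adjusted p = 0.0862, 0.0788 and 0.0739). Wif1, which also binds ligands, was low, with means of 0.226 ± 0.0706 in p21 and 0.744 ± 0.288 in SW females (0.50, adjusted p = 0.0334) and of 0.12 ± 0.117 in p21 and 0.605 ± 0.393 in DW males (0.49, adjusted p = 0.031). Those calls were lost on leaving out any of 7 animals, all but SW female 74, in the first case (adjusted p = 0.0535 to 0.111) and p21 male 38 or 53 or DW male 80 or 87 in the second (adjusted p = 0.0658 to 0.137). Dkk3, a DKK relative counted with the inhibitors by its symbol, stood at 3.46, 2.74, 2.93 and 3.72 in SW females against 2.34, 0.924, 1.29 and 1.63 in SW males (0.75, adjusted p = 0.00309). Sfrp2, the most abundant inhibitor, and Sfrp1, Sfrp5 and Dkk2 were not called. Dkk2 spread from 1.86 to 16.7 among p21 males.

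Axin2, the feedback inhibitor and usual readout of beta-catenin signalling, was not called in any contrast. Its mean was 17.5 ± 3.75 in p21 males, 13.7 ± 4.83 in SW males and 14.4 ± 2.69 in DW males. In p21 females it was 20.3 ± 2.15 and in SW females 15.7 ± 2.27. In DW females 76 and 77 it was 20.4 and 15.4, and in DW females 82 and 83, which stood apart, 8.74 and 7.24. The change from day 21 to DW females was -0.71 (adjusted p = 0.0578), or -0.18 (adjusted p = 0.703) without animals 82 and 83, and that to SW females and SW males -0.36 in each (adjusted p = 0.404 and 0.365). Znrf3 and Rnf43, the receptor ubiquitin ligases, were not called either, with group means of 10.6 to 12.8 and 1.57 to 2.73.

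Other genes of the pathway, from lists of secretion factors, further receptors, planar cell polarity, the destruction complex with Dishevelled, nuclear factors and target genes were called in few cases, and 66 of the 67 listed were tested. From day 21 to 28, 2 rose in SW males, the ubiquitin ligase subunit Btrc by 0.32 and the polarity cadherin Celsr2 by 1.25. In DW males 5 rose, Celsr2 by 1.48, the formin Daam2 by 0.97, the co-receptor Ptk7 by 0.86, the beta-catenin inhibitor Ctnnbip1 by 0.47 and Btrc by 0.44. In SW females 3 rose, Ccn5, a matricellular protein, by 1.09, Ptk7 by 1.01 and the secreted protein Cthrc1 by 0.64, and in DW females Cthrc1 rose by 1.04, Ccn5 rose by 0.79 and Dvl3, a Dishevelled, changed by -0.64. Dvl3 had a mean of 48.3 ± 18.8 in DW females and 71.5 ± 4.24 in p21 females, and its change was -0.15 (adjusted p = 0.287) without DW females 82 and 83, where Cthrc1 and Ccn5 stayed called at 0.80 and 1.17. Without p21 male 53 both calls in SW males were lost, Btrc at 0.28 (adjusted p = 0.0721) and Celsr2 at 0.86 (adjusted p = 0.115), as were those of Ptk7 and Ctnnbip1 in DW males (0.61 and 0.44, adjusted p = 0.125 and 0.0986). These were 3.03%, 7.58%, 4.55% and 4.55% of the listed genes, each below the share of all genes called. Ptk7 was also higher in SW females than in SW males, by 1.31, and no listed gene was called in the other contrasts.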

How the data were processed

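RNA of 24 libraries, 1 per mouse, was analysed from 1 deposited table. Per the submitters' processing notes, fastp, HISAT2, featureCounts, DESeq2 1.38.3 and mm10 were used. The strand setting and the annotation are not given in the sources used here, and reads of a gene and an antisense partner cannot be told apart. The authors deposited a normalised signal, read numbers divided by 1 factor per sample. All values (100% within 0.001) were whole multiples of a sample's step, so whole reads were recovered, 57600711 to 302145813 per library in the listed genes. Counting error is small beside the spread between animals except in genes with few reads.

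Of 16208 rows, 90 repeats were left out, and 16005 of 16118 genes passed filterByExpr with a minimum count of 10 on the recovered reads. The test was limma 3.58.1 (R 4.3.3) on log2(value + 1), which understates changes of low genes, with 6 group coefficients, 18 residual degrees of freedom, a variance trend and 11 contrasts, called at a Benjamini-Hochberg adjusted p under 0.05. A chi-square of recovered reads between replicates was at least 75.4 times its degrees of freedom in all 36 pairs, and no libraries were merged. On data simulated for the contrast of SW against p21 males (16005 genes, with a log2 change of 1 given to 200), 119 changed genes were found by limma (59.5%), and 14 unchanged genes were called. The unchanged genes made up a larger share of these calls than the 0.05 aimed at. Smaller changes, such as most of those called among the members, were not simulated, so the share found does not describe them.

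Groups follow the age, sex and weaning labels. Where the title of a p21 library gave another age, the age label was followed. The p21 animals carry the standard weaning label and were taken on the day of weaning. No animal number occurs in more than 1 group, and nothing was paired. Alternatives were edgeR 4.0.16 with TMM or with DESeq2 size factors, DESeq2 1.42.0, a pseudocount of 0.1, no filter, only the groups compared, mean log2 scores of the luminal and muscle markers as covariates, the run of animal numbers as a covariate, leaving out each animal, and, chosen after seeing the data, leaving out DW females 82 and 83. The run of animal numbers was fitted only in contrasts within an age. The p21 animals are numbered 30 to 56 and the p28 animals 73 to 124, so age and run cannot be told apart in the changes with age. The members and lists were chosen with earlier results of these data known. Per-animal values are given for members called in at least 1 contrast, and other members by level and range. Levels per kilobase use the union of exons in GENCODE mouse release 21. Gene positions in the table did not match that build, so coordinates are printed only for RefSeq promoter entries.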

Additional observations from a re-analysis of the deposited data

Results flagged for a closer look

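For the 20 members called at least once, each group of 4 was searched for an animal whose gap to the nearest other exceeded Dixon's 95% critical share of the group's range on the log2(value + 1) scale. 9 of 120 gene and group combinations met this, and chance gives about 1 in 20, or 6. The p21 male 53 was high for Fzd10 (log2 1.616, a normalised read number of 2.06 against 0.483 to 0.615 in the others) and low for Fzd8 (1.208, or 1.31 against 3.29 to 3.49). DW male 87 was low for Fzd2 (1.487, or 1.8 against 2.69 to 2.89) and high for Rspo4 (0.58, or 0.495 against 0.0141 to 0.0755). Fzd6 was low in SW male 124 (3.825, or 13.2 against 19.3 to 20.5) and in SW female 75 (4.006, or 15.1 against 20 to 20.8). Wnt7b was highest in p21 male 54 (0.282, or 0.216 with 0 in the others) and in SW male 78 (0.252, or 0.191 against 0 to 0.00716), and Wnt8b in DW female 76 (0.159, or 0.116 against 0.0712 to 0.0757).

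The change from day 21 to 28 under standard weaning differed between the sexes by the interaction test for Wnt7b (1.169, limma adjusted p = 0.000639) and Rspo4 (1.49, limma adjusted p = 0.000188). Both rose in SW females. Wnt7b stayed near 0 in males, with means of 0.054 at day 21 and 0.0496 after standard weaning. Rspo4 was 0.291 to 0.555 in p21 males and 0.084 to 0.22 in SW males, so lower SW male values also enter its difference.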

How the results depend on the processing

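No paired analysis was possible because animal numbers are not shared between groups. Over the members named with a test, 619 alternative values kept their direction and side of the threshold, 171 lost the call, 6 gained it and 1 reversed, the day 21 sex difference of Lgr6, at -0.23 with tissue scores. The cause of the changes listed here was not tested. The counts of members below are given without the share of all genes called in the same fit. They do not show whether members lost calls more often than other genes. Members called between DW and SW females, 2 as reported, were 0 with edgeR (TMM or DESeq2 size factors), with only the groups compared and without DW females 82 and 83, 1 with DESeq2, with a pseudocount of 0.1 and with tissue scores, and 1 to 3 on leaving out each animal. From day 21, the 5 in SW males became 1 with tissue scores and 1 with only the groups compared (3 to 5 without each animal). The 9 in SW females became 3 with either edgeR fit and 2 with tissue scores (6 to 10), the 9 in DW males 2 with tissue scores (4 to 9), and the 5 in DW females 3 with edgeR and TMM, 3 with tissue scores, 3 with only the groups compared and 2 without animals 82 and 83 (3 to 6). Between the sexes, 0 at day 21 became 1 with a pseudocount of 0.1 (0 to 2), 9 after standard weaning became 0 with tissue scores (6 to 9), and 2 after delayed weaning became 1 with either edgeR fit and 0 with tissue scores (2 to 4). The sex difference in the weaning effect, 0, ran from 0 to 1 without each animal, and that in the change with age, 2, became 0 with either edgeR fit, 1 with DESeq2 and 1 with a pseudocount of 0.1 (2 to 3). In DW against SW males 0 members were called under every alternative run. Members with under 100 reads in most animals, such as Wnt8b, Wnt9b, Wnt3 and Wif1, are limited by depth.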
